A study of Mus musculus with 4 samples.

Results

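Transcripts of 9 mouse complement genes were measured in sorted lung cells: the 3 C1q chains *C1qa*, *C1qb* and *C1qc*, the convertase components *C2*, *C3* and *C4b*, the anaphylatoxin receptors *C3ar1* and *C5ar1*, and the C1 inhibitor *Serping1*. They were taken by gene symbol from a deposited table of 21462 genes, in which all 9 were present, and all 9 were among the 16659 genes with a mean of at least 10 normalized counts that entered the test. Complement RNA was higher in both *Tet3* mutant libraries than in both controls for 7 of the 9 genes, against 19.6% of all genes tested (39% did not overlap in either direction). This contrast is a description and no test, as the genes were chosen with earlier results of these data known. The 3 C1q chains among them are also not independent. The largest ratios of group means belonged to the anaphylatoxin receptors and *C2*, at 1.57-fold to 1.72-fold on the scale of the test. None of the 9 passed an adjusted p of 0.05 with limma, and 0% of all genes tested did. The paper reports differentially expressed genes for these cells with DESeq2, a count-based method that was not run here. The 0% therefore holds for this limma test only. At an unadjusted p under 0.05, 3 of the 9 were higher in the mutants (*C1qa*, *C1qb* and *C3ar1*) and 0 lower, against 6.68% of all genes in either direction and 3.83% higher.

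The study compared lung smooth muscle cells in which *Tet3* was inactivated with cells from control mice. *Tet3* is a dioxygenase gene whose product turns 5-methylcytosine of DNA into 5-hydroxymethylcytosine. There were 4 RNA-seq libraries, 2 *Tet3* mutant and 2 control, each from a separate animal by the study's methods. All mice were on a C57BL/6 background. Mutants carried floxed *Tet3*, a tamoxifen-inducible Cre recombinase (ERT2Cre) under the smooth muscle actin promoter and a ROSA26 tdTomato reporter, and tamoxifen was injected in adults. Controls lacked the floxed allele and carried the Cre allele, the tdTomato reporter or both. Which of these each control animal carried, and the age at collection, were not given in the sources used here. Sorting on tdTomato needs the reporter, however, and labelling through the actin promoter needs the Cre. Lungs were perfused and digested, cells bearing CD45 (leukocytes) or Ter119 (erythroid cells) were depleted on magnetic beads, and viable tdTomato-positive cells were sorted. The reporter therefore marks cells in which the actin promoter was active and any other cell that passed the gate. A normalized count is the number of reads assigned to a gene after scaling between libraries, and totals ran from 6805272 to 7164573 per library.

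Complement is a cascade of plasma and tissue proteins that tags microbes, immune complexes and cell debris for removal. C1q binds such targets and starts the classical pathway, in which the C1 proteases cleave C4 and C2 to form a convertase that cleaves C3. Cleavage of C3 and C5 releases small peptides, the anaphylatoxins, which recruit and activate leukocytes through C3aR and C5aR1. The liver makes most plasma complement, whereas C1q comes mainly from macrophages and related myeloid cells, and fibroblasts and epithelium also make several components.

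The libraries were checked before the complement genes. *Tet3* itself stood at 1847 (control 1) and 1926 (control 2) normalized counts, against 1534 (mutant 1) and 1444 (mutant 2). It was lower in both mutants but far from absent. Counts per gene do not show which exons or cells the remaining reads came from. Control 2 stood apart: 388 of 10888 genes with a mean of at least 100 differed by more than 2-fold from all 3 other libraries there, against 10 to 73 in the others. It also had 2 normalized counts of *Xist* against 5214 to 6781 elsewhere, and 774 of the Y-linked *Ddx3y* against 0, while the labels give no sex. By these genes control 2 came from a male, and control 1 and both mutants from females. Where a result depends on control 2, sex cannot be told apart from other differences of that animal. Smooth muscle markers were present, with all 8 listed genes detected in every library and sums of 4567 and 5848 in the controls and 6894 and 6519 in the mutants. The libraries also held markers of macrophages (10 genes, sums of 5282 to 7975), fibroblasts (8 genes, 17878 to 22689), endothelium (7 genes, 12584 to 14032) and alveolar type 2 cells (9 genes, 11768 to 23720), so the markers present were not those of smooth muscle alone. The paper assigns raised macrophage-enriched genes, among them *Cd68* and *Adgre1* of this list, to the smooth muscle cells themselves. Which cells the marker counts came from was not tested. In bulk RNA of this kind, more cells of a type and more RNA per cell cannot be told apart.

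The 5′ flanks of 3 members are shown because they stand for one chain of C1q, the receptor with the smallest unadjusted p among the anaphylatoxin receptors, and the component with the smallest difference. Each is the 250 bases before the RefSeq transcription start (GRCm38.p6, minus strand), read 5′ to 3′ with the start at the right-hand end. Capitals mark matches to motifs searched on both strands. *C1qb* lies at chr4:136886201-136886450, *C3ar1* at chr6:122856158-122856407 and *C3* at chr17:57228137-57228386.
C1qb: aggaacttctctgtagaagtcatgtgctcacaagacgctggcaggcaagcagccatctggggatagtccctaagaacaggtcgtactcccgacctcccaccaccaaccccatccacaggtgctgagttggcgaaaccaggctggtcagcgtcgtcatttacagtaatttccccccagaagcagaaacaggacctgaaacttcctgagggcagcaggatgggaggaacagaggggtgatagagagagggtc
C3ar1: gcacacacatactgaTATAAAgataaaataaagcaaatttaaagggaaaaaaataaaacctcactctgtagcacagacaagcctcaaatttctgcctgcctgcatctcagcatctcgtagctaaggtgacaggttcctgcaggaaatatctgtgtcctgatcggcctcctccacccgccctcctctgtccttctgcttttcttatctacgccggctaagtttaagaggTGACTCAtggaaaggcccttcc
C3: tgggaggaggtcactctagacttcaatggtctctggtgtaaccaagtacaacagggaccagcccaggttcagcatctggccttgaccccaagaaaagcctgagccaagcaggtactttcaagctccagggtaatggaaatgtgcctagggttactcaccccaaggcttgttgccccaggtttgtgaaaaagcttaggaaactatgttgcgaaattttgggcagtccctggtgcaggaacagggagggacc

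The motifs searched were GAGGAAGT (PU.1, a myeloid factor), TGANTCA (AP-1), TTCNNNGAA (the interferon gamma-activated site), the interferon-stimulated response element and TATAAA. Of the 9 members, 5 matched the promoter table: *C1qb*, *C1qc*, *C3*, *C3ar1* and *C5ar1*. The *C3ar1* window held TGANTCA from 22 to 16 bases upstream of the start, a motif found in 6.75% of 32817 promoter windows of this length, and TATAAA from 235 to 230 bases upstream, found in 12.4%. GAGGAAGT occurred in the *C1qc* window on the opposite strand, from 195 to 188 bases upstream, and in 2.44% of all windows. Neither interferon motif, present in 7.01% (TTCNNNGAA) and 2.97% (the response element) of windows, occurred in the 5 members' windows, which says nothing about the factors.

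The C1q chains are encoded side by side on chromosome 4 (GRCm38), all on the minus strand. *C1qb* (ENSMUSG00000036905) spans 136880129 to 136886187, *C1qc* (ENSMUSG00000036896) 136889804 to 136893065 and *C1qa* (ENSMUSG00000036887) 136895917 to 136898803. The cluster covers 18675 bases with gaps of 3616 and 2851 bases. Their protein products join in equal numbers to form C1q, and the genes share cells and locus, so they are not independent measurements.

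*C1qa*, which encodes the A chain, had 396 and 389 normalized counts in the controls and 493 and 552 in the mutants. Both mutants lay above both controls, at means of 392.5 ± 4.95 and 522.5 ± 41.7 (SD, n = 2), a log2 fold change of 0.41 with an SE of 0.13 (limma unadjusted p = 0.0218, adjusted p = 0.681). In fold terms this was 1.33, with a 95% interval of 1.06 to 1.66. *C1qb*, for the B chain, had 480 and 492 in the controls and 605 and 683 in the mutants. The groups again did not overlap, at 486 ± 8.49 and 644 ± 55.2, and the log2 fold change was 0.40 ± 0.12 (SE; limma unadjusted p = 0.0209, adjusted p = 0.681). *C1qc*, for the C chain, had 445 and 442 in the controls and 503 and 611 in the mutants. These groups did not overlap, and the log2 fold change was 0.32 ± 0.14 (SE; limma unadjusted p = 0.0723, adjusted p = 0.681), and 0.18 without mutant 2.

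The control spread of these genes was small. Between the 2 control animals *C1qa* differed by 7, *C1qb* by 12 and *C1qc* by 3 normalized counts. Their SDs of 4.95, 8.49 and 2.12 lay below the SD that counting error alone gives at those levels, 19.8, 22.0 and 21.1. limma draws each gene's variance toward that of genes of similar level, so these small SDs did not enter its test as they stand.

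The chains kept nearly the same proportions in every library. *C1qa* made up 29.4% to 30.8% of summed C1q counts, *C1qb* 36.3% to 37.8% and *C1qc* 31.4% to 33.7%. The sum was 1321 and 1323 in the controls and 1601 and 1846 in the mutants, a ratio of group means of 1.30. The summed counts of 10 macrophage markers were 6117 and 5282 in the controls and 6948 and 7975 in the mutants, a ratio of 1.31. All 10 of these markers had log2 fold changes above 0, 8 had both mutants above both controls (against 49% and 19.6% of all genes), and none was at 0 in any library. Macrophage markers were not alone in this. All 8 smooth muscle, 7 neutrophil, 8 T cell and 7 endothelial markers tested were above 0 as well. Of the other lists, fibroblast had 7 of 8, B cell 5 of 6, mesothelium 2 of 5, and alveolar type 2 (9 genes) and erythroid (5 genes) 0. Smooth muscle sums were 4567 and 5848 in the controls and 6894 and 6519 in the mutants. Per 100 macrophage marker counts there were 21.6 and 25.0 C1q counts in the controls and 23.0 and 23.1 in the mutants. This ratio overlapped between the groups, at 23.3 ± 2.44 and 23.1 ± 0.0741 (SD, n = 2), and the mutant mean was lower by 0.226, less than the pooled SD of 1.73. Its direction turned with the control used: the mutant minus control difference was -1.95 without control 1 and 1.499 without control 2. The part of macrophage number in the C1q values was not tested.

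**Figure D1:**
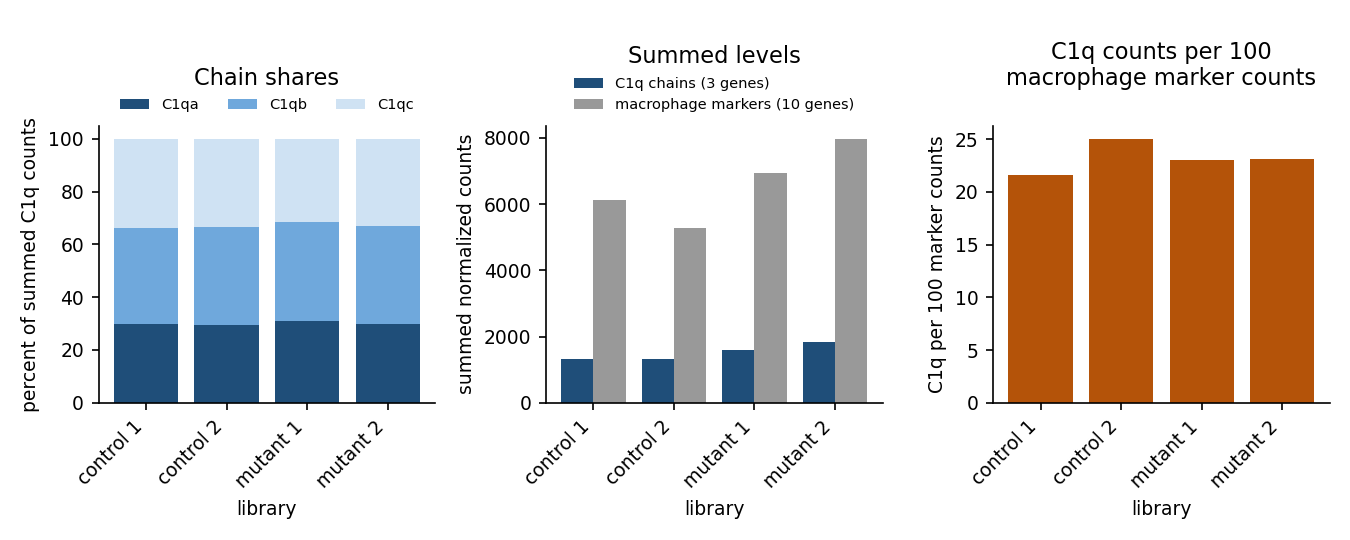
Left, share of each C1q chain in the summed C1q counts (percent) by library. Middle, summed normalized counts of the 3 C1q genes and of 10 macrophage markers. Right, C1q counts per 100 macrophage marker counts. Both sums were higher in the mutants (1601 and 1846 against 1321 and 1323 for C1q), while the ratio lay between 21.6 and 25.0 in all 4 libraries.

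Levels most like the averaged C1q profile were sought among 10583 genes with a mean of at least 100, other than the members and genes with clone names, as the root mean square difference of log2 levels centred on each gene's own mean over the 4 libraries. The closest were *Adap1* (0.0133), *Spire1* (0.0223), *Irf5* (0.0275), *Chp2* (0.0295) and *Camk1d* (0.0303). *Irf5*, for example, had 445 and 443 in the controls and 519 and 631 in the mutants, and *Spire1* had 410 and 404, then 498 and 589. The macrophage gene *Csf1r*, the receptor for colony stimulating factor 1, was near but not nearest, with 80 genes closer. With 4 libraries these likenesses are a description and no test.

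The receptors for the anaphylatoxins gave 2 of the 3 largest fold changes. *C3ar1*, the receptor for C3a (ENSMUSG00000040552, chromosome 6, 122847138 to 122856161), had 414 and 315 normalized counts in the controls and 489 and 659 in the mutants. Both mutants lay above both controls, at 364.5 ± 70.0 and 574 ± 120 (SD, n = 2), and the log2 fold change was 0.65 ± 0.22 (SE; limma unadjusted p = 0.0288, adjusted p = 0.681). *C5ar1*, the receptor for C5a (ENSMUSG00000049130, chromosome 7, 16246743 to 16259540), had 168 and 101 in the controls and 182 and 279 in the mutants. Its groups did not overlap either, with a log2 fold change of 0.79 ± 0.34 (SE; limma unadjusted p = 0.0685, adjusted p = 0.681), although control 1 and mutant 1 lay close together. Both depended on control 2, the lowest library, and mutant 2, the highest. The log2 fold changes of *C3ar1* and *C5ar1* were 0.45 and 0.42 without control 2, and 0.44 and 0.48 without mutant 2.

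Per 100 macrophage marker counts, *C3ar1* had 6.77 and 5.96 in the controls and 7.04 and 8.26 in the mutants, a ratio of means of 1.20. *C5ar1* had 2.75 and 1.91, then 2.62 and 3.50, and so overlapped on this scale. Neutrophils also bear *C5ar1*, and their markers (7 of 8 listed genes tested) summed to 778 and 541 in the controls and 1425 and 913 in the mutants, with all 7 above 0 in log2 fold change, against 49% of all genes. Their part in the receptor values was not tested.

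The convertase components differed among themselves. *C2*, the protease that pairs with C4b (ENSMUSG00000024371, chromosome 17, 34862604 to 34898265), had 122 and 63 normalized counts in the controls and 149 and 134 in the mutants. The groups did not overlap, and the log2 fold change was 0.68 ± 0.36 (SE; 95% interval -0.24 to 1.60, limma unadjusted p = 0.115, adjusted p = 0.689). Without control 2 it was 0.21. The *C2* value is also uncertain in counting, as reads assigned to several genes were left out. On the same strand, 42.8% of its exon bases lie in exons of *Gm20547*, and 55.6% of the 75-base windows of its longest transcript occur there. *Gm20547* is not in the deposited table, so whether it took part in the counting is unknown. On either strand, 46.9% of the exon bases are shared, with *Gm20547* or *Zbtb12*.

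*C4b*, whose cleavage product anchors the convertase (ENSMUSG00000073418, chromosome 17, 34728380 to 34743882), had 2453 and 2223 in the controls and 3073 and 2527 in the mutants. The groups did not overlap, although control 1 and mutant 2 lay close together, and the log2 fold change was 0.25 ± 0.14 (SE; limma unadjusted p = 0.12, adjusted p = 0.689), and 0.11 without mutant 1. Of the 75-base windows of its transcript, 23.5% also occur in *C4a*, so reads from the shared stretches were left out of both. *C4a* itself had 26, 19, 25 and 17 counts in control 1, control 2, mutant 1 and mutant 2.

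*C3*, the component on which all activation routes meet (ENSMUSG00000024164, chromosome 17, 57203970 to 57228136), had the highest counts of the 9: 4305 and 4310 in the controls and 4716 and 4027 in the mutants. The groups overlapped, as mutant 2 lay below both controls. The log2 fold change was 0.02 ± 0.12 (SE; limma unadjusted p = 0.895, adjusted p = 0.977), or 1.01-fold with a 95% interval of 0.817 to 1.25. *Serping1*, the serine protease inhibitor of C1r and C1s (ENSMUSG00000023224, chromosome 2, 84765387 to 84775444), had 1383 and 1308 in the controls and 1503 and 1357 in the mutants. The groups overlapped, and the log2 fold change was 0.09 ± 0.11 (SE; limma unadjusted p = 0.462, adjusted p = 0.836), or 1.06-fold (0.876 to 1.29).

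**Figure D2:**
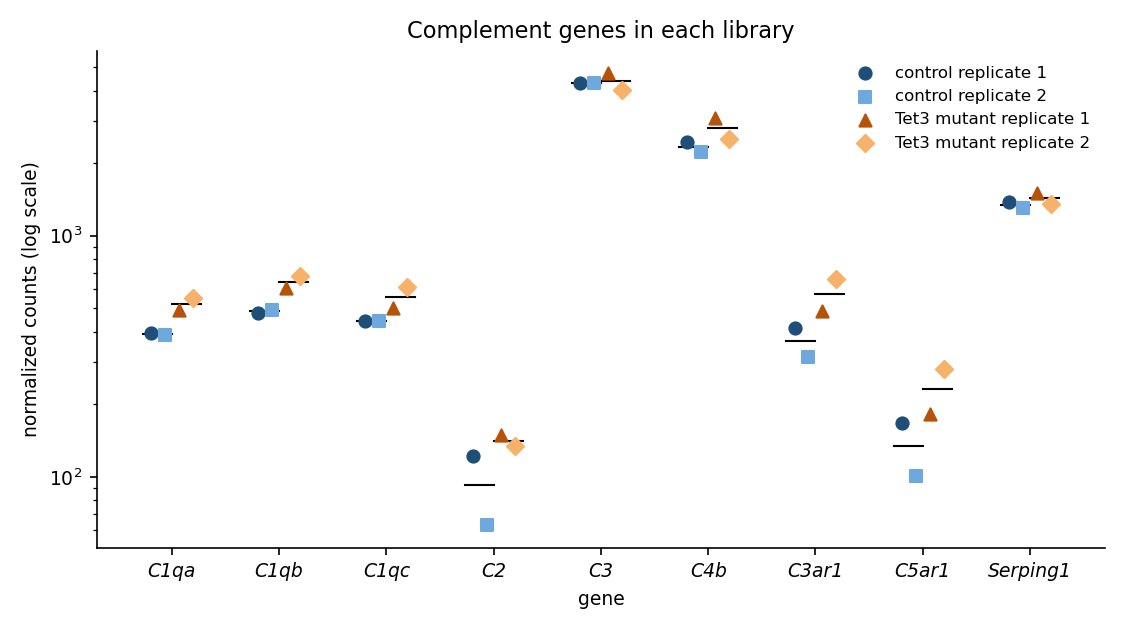
Normalized counts of each of the 9 genes in the 4 libraries on a log axis, with lines at the group means. Mutant libraries lay above both controls for *C1qa*, *C1qb*, *C1qc*, *C2*, *C4b*, *C3ar1* and *C5ar1*, and overlapped the controls for *C3* and *Serping1*.

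Because counts scale with gene length, levels of different genes were compared per kilobase of annotated exon, as the mean of the 4 libraries. *C3* was highest at 844 normalized counts per kb (783 to 917), followed by *Serping1* at 597 (563 to 646), *C1qb* at 519, *C4b* at 451 and *C1qa* at 440. From *Serping1* to *C1qa* each gene overlapped its neighbour in range. *C1qc* was at 259 (229 to 316), *C3ar1* at 109 (73.2 to 153), *C5ar1* at 71.0 (39.3 to 109), overlapping *C3ar1*, and *C2* was lowest at 30.2 (16.3 to 38.5). Several of these gaps depended on the length used. Per kilobase of the longest transcript, *Serping1* was at 785 (740 to 850) and overlapped *C3* at 845 (784 to 918). On that scale *C1qc* was at 416 (367 to 508) and overlapped *C1qa*, and *C2* was at 44.3 (23.9 to 56.4) and overlapped *C5ar1*. Both lengths include stretches of *C2* and *C4b* shared with other genes, where reads may have been left out, so their levels may be understated.

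**Figure D3:**
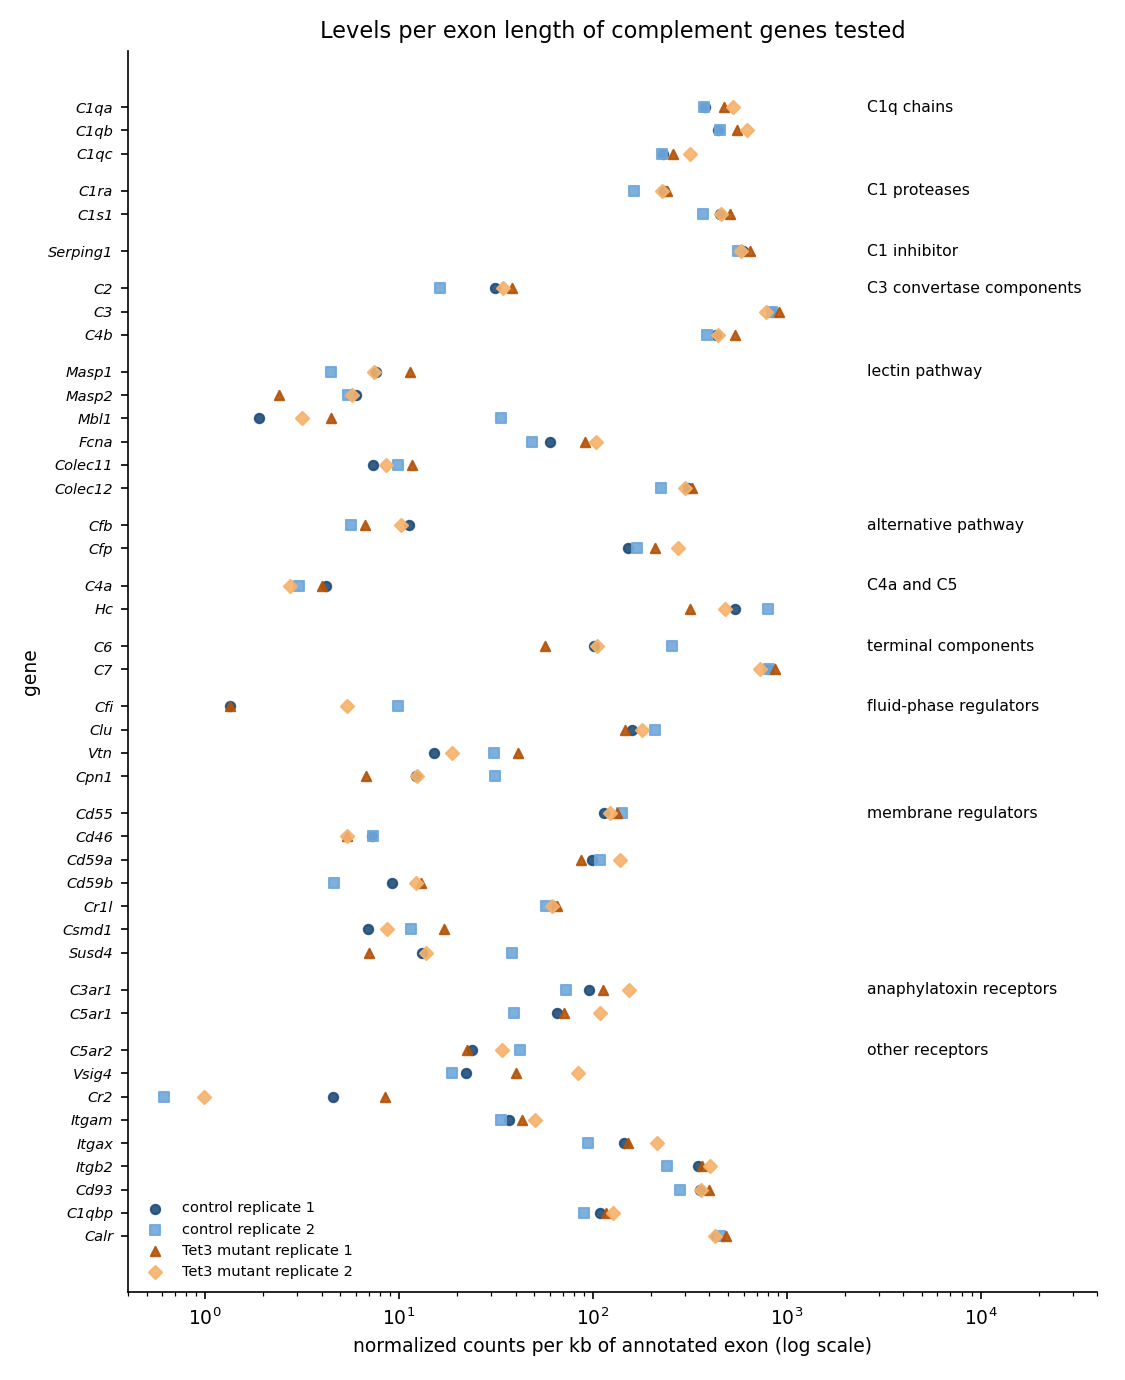
Normalized counts per kilobase of annotated exon (log axis) for complement genes tested, grouped by role, with 1 symbol per library. On this length scale *C3* was highest of the 9 members, at a mean of 844, and *C2* lowest, at 30.2.

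Other complement genes were taken from a list of 51 that covers the remaining components, regulators and receptors. Of these 41 were in the table and 35 were tested. Left out of this test were the 10 not in the table and those in it with a mean under 10. For 23 of the 35 the log2 fold change was above 0, with a median of 0.13, against 9 of 9 above 0 and a median of 0.40 for the members and -0.01 for all genes (49% above 0). None passed the adjusted test with limma (adjusted p 0.681 to 0.996), and 4 had an unadjusted p under 0.05, 3 higher and 1 lower in the mutants, against 3.83% and 2.85% of all genes. Groups did not overlap for 10 higher and 2 lower, against 19.6% and 19.5%. Members and lists were chosen with earlier results of these data known, so the contrast between members and other genes is no test.

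**Figure D4:**
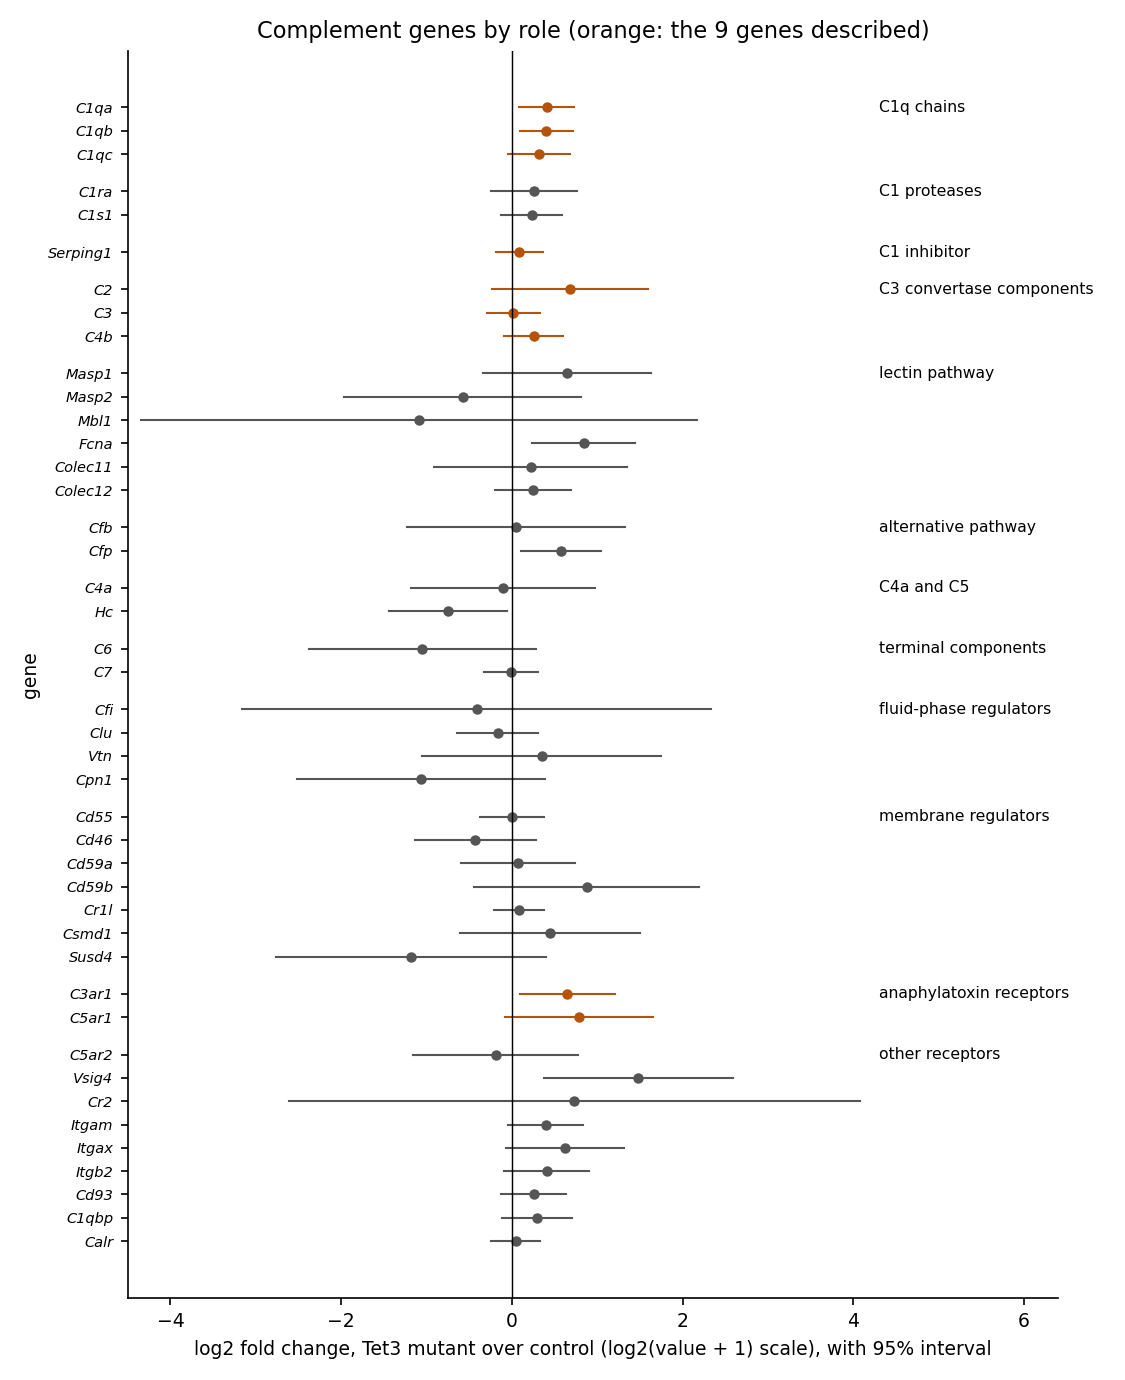
log2 fold change, mutant against control, on the log2(normalized count + 1) scale, with 95% intervals, for the members and other complement genes tested, grouped by role, with the 9 members in orange. All 9 lie above 0, and the intervals of *C1qa*, *C1qb* and *C3ar1* do not reach it. Among the other genes, the intervals of *Fcna*, *Cfp* and *Vsig4* lie wholly above 0. That of *Hc*, at -0.75, lies wholly below.

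The 3 with an unadjusted p under 0.05 and higher values in the mutants were *Fcna*, *Cfp* and *Vsig4*. *Fcna*, which encodes a ficolin that binds microbial sugars, had 83 and 67 in the controls and 126 and 143 in the mutants, a log2 fold change of 0.84 ± 0.24 (SE; limma unadjusted p = 0.0156). *Cfp*, which encodes properdin, the stabilizer of the alternative convertase, had 264 and 295, then 363 and 477 (0.57 ± 0.18, SE; limma unadjusted p = 0.0249). *Vsig4*, a macrophage receptor for C3 fragments, had 33 and 28, then 60 and 125 (1.48 ± 0.43, SE; limma unadjusted p = 0.0181). None of the 3 overlapped between groups, and the limma adjusted p was 0.681 for each. Without mutant 2 the log2 fold change was 0.38 for *Cfp* and 0.96 for *Vsig4*. The macrophage marker sum given above was higher in the same libraries, and the part of macrophages in these values was not tested.

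*Hc*, which encodes complement C5, had 3396 and 5000 in the controls and 1999 and 2998 in the mutants. Both mutants lay below both controls, with a log2 fold change of -0.75 ± 0.27 (SE; limma unadjusted p = 0.0385, adjusted p = 0.681) and -0.47 without control 2 or -0.46 without mutant 1. Alveolar type 2 markers were lower as well in the same libraries, with sums of 16048 and 23720 in the controls and 11768 and 14578 in the mutants, and with 0 of 9 above 0 in log2 fold change and 7 of 9 below both controls, against 19.5% of all genes. *Lyz2*, one of these 9, is also made by macrophages. The terminal component *C6*, named after its values were seen, had 359 and 915 in the controls and 203 and 376 in the mutants, so control 2 was again highest, and its log2 fold change was -1.05 with all libraries and -0.38 without control 2. The part of alveolar cells was not tested.

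The most abundant genes of the other role groups had small differences. *C1s1*, the C1s protease, had 1423 and 1163 in the controls and 1595 and 1434 in the mutants (log2 fold change 0.23, limma adjusted p = 0.699). *Colec12*, a scavenger collectin, had 2693 and 1959, then 2831 and 2622 (0.25, adjusted p = 0.725). *Cd93*, a membrane protein first described as a C1q receptor, had 2395 and 1893, then 2660 and 2427 (0.25, adjusted p = 0.690). All 3 depended on control 2, without which the log2 fold changes were 0.09 for *C1s1*, 0.02 for *Colec12* and 0.09 for *Cd93*.

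The pore component *C7* and a membrane regulator were nearer still to no difference. *C7* had 2144 and 2169 in the controls and 2344 and 1959 in the mutants (-0.01, limma adjusted p = 0.990). *Cr1l*, the rodent membrane regulator Crry, had 647 and 592, then 676 and 635 (0.08, adjusted p = 0.859), and 0.02 without control 2.

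Each member was recomputed with each library left out in turn. The log2 fold change stayed above 0 for 8 of 9 genes in all 4 refits, and that of *C3* ran from -0.10 to 0.13. *C1qa* ranged from 0.33 to 0.49 and *C1qb* from 0.32 to 0.49, the narrowest of the 7 that did not overlap. *C4b* ranged from 0.11 to 0.40, *C2* from 0.21 to 1.15, *C5ar1* from 0.42 to 1.15 and *C3ar1* from 0.44 to 0.87. The count with an unadjusted p under 0.05 was 0 without mutant 2 and 1 without mutant 1.

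**Figure D5:**
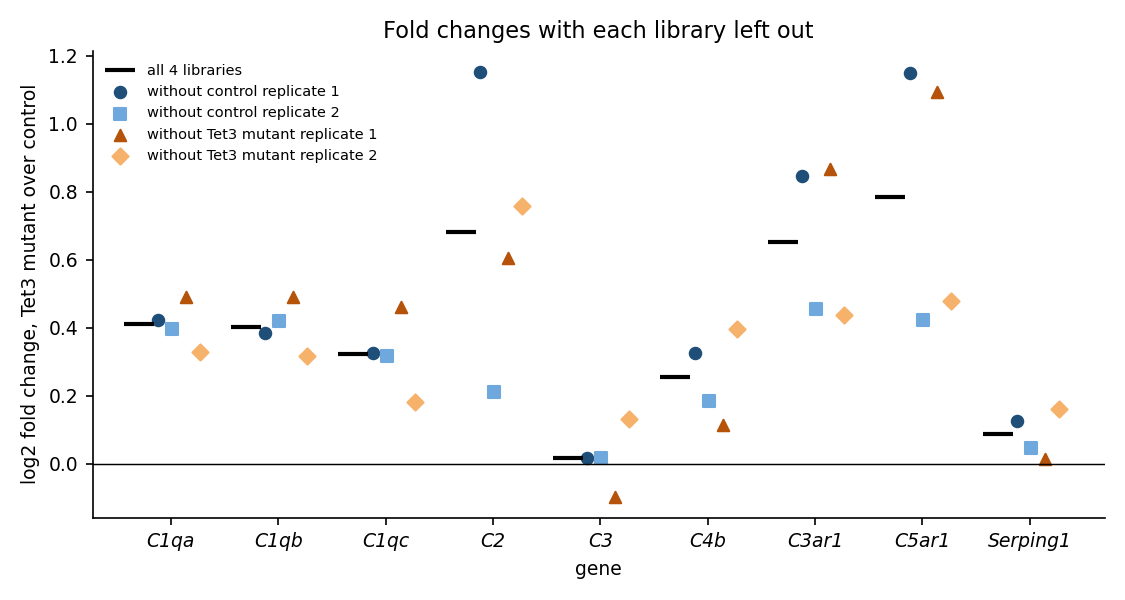
log2 fold change (log2 normalized count + 1 scale) of each member with all 4 libraries and with each library left out. The C1q chains stay between 0.18 and 0.49, whereas *C2* and *C5ar1* reach from 0.21 and 0.42 to 1.15.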

How the data were processed

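Ribosome-depleted total RNA from a stranded kit was sequenced in 4 libraries of cells sorted from mouse lung, grouped by the genotype in their labels. By the study's methods and the submitters' processing notes, reads were checked with FastQC, trimmed with Trimmomatic 0.36, aligned with STAR 2.6.0c to mm10 (GRCm38) and counted with featureCounts of Subread 1.6.0, leaving out reads that matched several places or genes. Whether strand was used in counting was not given in the sources used here, so overlapping genes on opposite strands are uncertain. The deposited values were scaled by the authors with DESeq2 and rounded to whole numbers. The deposited table, made by the authors, is treated as a score, not raw counts, since whole reads could not be recovered, so no count model was run and the raw depth is unknown. The floor of 3 and counting SDs cover counting error only.

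From these values, genes with a mean of at least 10 normalized counts were tested with limma 3.58.1 in R 4.3.3 on log2(value + 1) with a trended prior, two-sided, without a block, and with Benjamini-Hochberg adjustment over all genes tested at 0.05. A fold change on this scale understates the change of genes with low counts. With 2 libraries against 2, the smallest p that exact permutation can reach for 1 value is 0.333. The step was also run on simulated counts with the same small spread in every library. No simulated library stood apart as control 2 does here, so that run does not show how the test performs on these data. Members and gene lists were chosen with earlier results of these data known. Every member was named. Other complement genes were named if the unadjusted p was under 0.05 or the mean was the highest of their role group. One gene that the rule names is not reported here. Coordinates were those of the deposited table, and 9 of 9 members had the same in GENCODE (21426 of 21462 genes were found). Promoters came from RefSeq (GRCm38.p6). Alternatives were other pseudocounts, filters, scalings and priors, the replicate block and leaving out each library.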

Additional observations from a re-analysis of the deposited data

How the results depend on the processing

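Over 12 alternatives, 8 of 9 members kept the direction of their difference, the exception being *C3*, at -0.10 without mutant 1 (0.13 without mutant 2), while 21 of 35 other complement genes did. No member and no other complement gene passed the adjusted test under any of them. Among all genes 1 passed with an untrended prior, *Hal* (279 and 291 normalized counts in the controls, 2 and 2 in the mutants, limma adjusted p = 0.0307), which is no complement gene and is named after its values were seen. That prior also lowered the members with an unadjusted p under 0.05 from 3 to 0. Leaving out a library in turn gave 0 to 4 such members, 1 to 14 other complement genes and 273 to 3366 of all genes. In those refits the lone library of a group is assumed to vary like the other group. Scaling to equal totals moved the share of higher genes among those with an unadjusted p under 0.05 from 57.4% to 69.2%.

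The replicate numbers were not shown to pair the animals: deviations of same-numbered libraries had a Pearson correlation of 0.134 and a Spearman correlation of 0.123 over 16659 genes, with 2 pairs that the labels do not tie to a litter, batch or day. With the replicate number as a block, 3 members, 7 other complement genes and 1637 of all genes had an unadjusted p under 0.05, of which 42.8% were higher in the mutants. None passed the adjusted test. The count models planned for raw reads were not run because the values are scaled and rounded. With 2 libraries a group, the 95% intervals stayed wide, from -0.24 to 1.60 (log2) for *C2* and from -0.09 to 1.66 for *C5ar1*.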

Other observations

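Ratios between members give a further view of the same libraries. The *C3* to *C4b* ratio was 1.75 and 1.94 in the controls and 1.53 and 1.59 in the mutants. The 9 members together made up 0.145% and 0.135% of all normalized counts in the controls and 0.170% and 0.159% in the mutants, and *C3* alone was 42.3% and 44.7%, then 40.3% and 37.2%, of that sum. *Serping1* relative to the sum of *C1ra* and *C1s1*, the proteases it inhibits, was 0.652 and 0.792 in the controls and 0.648 and 0.643 in the mutants. The ratio of *C3ar1* to *C5ar1* was 2.46 and 3.12, then 2.69 and 2.36, and so overlapped.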
